A study of Mus musculus with 12 samples.

Results

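Lcn2, the beta-defensin gene Defb8, the complement gene C3 and the calgranulin gene S100a8 were taken as 4 secreted innate defence genes, and they were followed in mouse ovaries with and without tumors. They were chosen by their measured values, with the difference between tumor and control ovaries in these same arrays known, so their levels are given as a description without a test. Probe sets were found by gene symbol in the platform annotation, which gave 1 probe set each for Lcn2, Defb8 and S100a8, and so 3 of the 10949 genes with a single symbol. C3 was not analysed here. The other 11 beta-defensin genes with a probe set (symbols starting Defb) served as background.

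All 12 ovaries came from female mice at 23 weeks of age and at diestrus, staged by vaginal smear. The 6 controls carried Pgrcre/+ alone and had no tumor. The 3 stage I and 3 stage II ovaries carried Pgrcre/+PgrBLsL/+, so the Pgrcre allele was common to every group, controls included. Cre was expressed from the progesterone receptor (Pgr) locus, and the series concerns constitutive expression of the receptor's isoforms in ovarian neoplasia. Each ovary with PgrBLsL had a tumor stage, so the allele and the tumor cannot be told apart. The labels call the samples bioreplicates, and p-values measure the spread between these arrays only.

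Lcn2 encodes lipocalin 2, a secreted protein that binds the siderophores with which bacteria take up iron, and it is made by neutrophils and by stimulated epithelia. Beta-defensins are short cationic antimicrobial peptides, made mainly by epithelia and encoded in gene clusters. S100a8 forms with S100a9 the metal-binding protein calprotectin, abundant in neutrophils. C/EBP, NF-kB and STAT factors downstream of interleukins and Toll-like receptors are known to induce many such genes.

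The bases just before the start of Lcn2 and Defb8 are shown because both genes were high in the same ovaries, and those of Defb3 because it neighbours Defb8 and stayed low. Each run holds the 250 bases before the gene's start, from RefSeq on build GRCm38.p6, read 5′ to 3′ on the gene's strand, at chr2:32387740-32387989 (minus strand) for Lcn2, chr8:19447607-19447856 (minus strand) for Defb8 and chr8:19293111-19293360 (plus strand) for Defb3. Capitals mark matches to 5 motifs searched on both strands.
Lcn2: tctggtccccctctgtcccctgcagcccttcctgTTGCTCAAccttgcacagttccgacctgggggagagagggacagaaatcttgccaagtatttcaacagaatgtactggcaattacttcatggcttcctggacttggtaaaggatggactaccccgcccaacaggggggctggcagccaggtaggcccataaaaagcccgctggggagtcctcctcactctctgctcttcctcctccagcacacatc
Defb8: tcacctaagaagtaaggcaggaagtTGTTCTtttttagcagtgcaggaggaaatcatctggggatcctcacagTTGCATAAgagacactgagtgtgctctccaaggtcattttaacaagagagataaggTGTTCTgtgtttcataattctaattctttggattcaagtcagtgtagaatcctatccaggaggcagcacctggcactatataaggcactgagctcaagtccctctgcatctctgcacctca
Defb3: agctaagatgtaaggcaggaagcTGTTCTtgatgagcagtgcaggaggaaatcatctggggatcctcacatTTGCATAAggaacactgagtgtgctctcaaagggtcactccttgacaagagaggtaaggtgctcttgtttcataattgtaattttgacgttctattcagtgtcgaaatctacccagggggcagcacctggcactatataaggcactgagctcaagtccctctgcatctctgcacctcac
The C/EBP motif TTGCNNAA lay once in Lcn2, at -216 to -209, once in Defb8, at -177 to -170, and once in Defb3, at -179 to -172, and 9.56% of 32851 promoters held it. The progesterone receptor half-site AGAACA, matched on the other strand, lay in Defb8 at -225 to -220 and at -121 to -116 and in Defb3 at -227 to -222, against 16.1% of promoters. The NF-kB motif GGANNNTCC (7.27%), the STAT motif TTCNNNGAA (7.02%) and the exact TATA box letters TATAAA (12.4%) had no match in these 3 windows. Other forms of the TATA box were not searched. Aligned end to end, Defb8 and Defb3 were identical at 222 of 256 alignment positions (86.7%), Defb8 and the next neighbour Defb7 at 74.3%, and the unrelated pair Defb8 and Lcn2 at 50.7%. In the same windows of other genes, Defb7 held neither a C/EBP nor a half-site match. S100a8 held the exact TATAAA at -30 to -25 and no C/EBP match.

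Lcn2 was low in control ovaries and near the top of the array scale in every stage II ovary. Its log2 level was 5.35, 6.71, 5.06, 5.35, 6.76 and 7.12 in control replicates 1 to 6. In stage I it was 13.70, 12.34 and 12.17, and in stage II it was 14.14, 14.08 and 14.10. No tumor ovary overlapped a control, and the 3 stage II ovaries lay above the 3 of stage I. Every array of both stages lay above every control in 1.44% of all genes (158 of 10949). The share of all genes that separate stage II from stage I in this way was not counted. The log2 difference from control was 6.68 ± 0.48 (SE of the fit) in stage I and 8.05 in stage II, and stage II exceeded stage I by 1.37 (2.58-fold). The rank on the array shows the same order: 8223 to 12244 of 16376 probe sets were brighter than Lcn2 in controls, 40, 205 and 252 in stage I, and 4, 5 and 6 in stage II. The highest values on the arrays were about 14.4, so the stage II level had little room above it, and its SD of 0.03 (n = 3) compares with 0.84 (n = 3) in stage I and 0.90 (n = 6) in controls.

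Lcn2 varied among the controls and was higher in replicates 2, 5 and 6 than in replicates 1, 3 and 4. In the same order of replicates 1 to 6, the mean of 14 epithelial markers relative to the control mean was -0.41, 0.13, -0.08, -0.25, 0.51 and 0.11 on the log2 scale. The keratin gene Krt19 was at 6.67, 8.52, 7.97, 7.70, 8.81 and 8.71. Replicate 5 also had the highest level of Ovgp1, a secreted glycoprotein of the oviduct (12.70, against 6.16 to 8.70 in the other controls). Genes of other kinds also set replicates 1 and 4 apart from the other controls, replicate 3 included. The theca marker Star was at 12.8 and 13.22 there, against 11.49 to 11.85. S100a6 was at 12.94 and 13.25, against 11.55 to 12.11. Krt19, Star and S100a6 were set here after their values were seen. The part of epithelium or of other cells in the Lcn2 levels of controls was not tested.

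**Figure D1:**
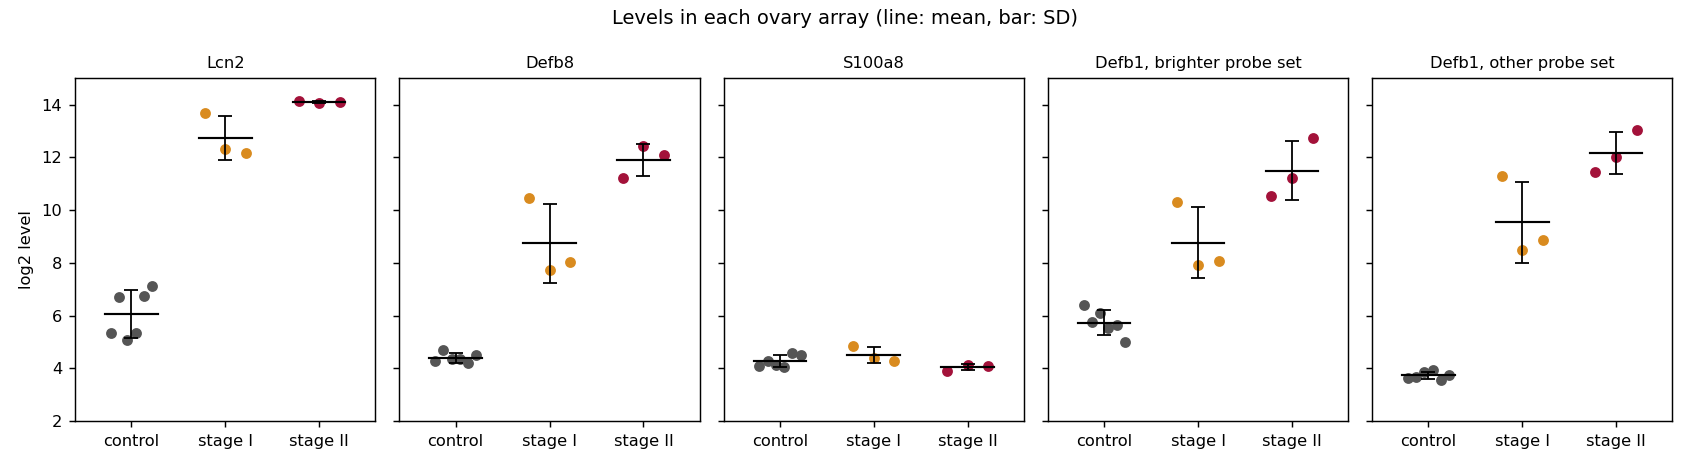
The log2 level (vertical axis) of Lcn2, Defb8, S100a8 and both Defb1 probe sets in 6 control, 3 stage I and 3 stage II ovaries. Points are arrays, horizontal lines group means and bars SDs; Lcn2 reaches 14.08 to 14.14 in stage II while S100a8 stays between 3.91 and 4.83 in all arrays.

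Defb8 was also low in controls and high in tumor ovaries. Its log2 level was 4.18 to 4.69 in controls (median 4.34), 10.46, 7.72 and 8.05 in stage I, and 11.23, 12.42 and 12.08 in stage II. Every tumor ovary lay above every control, as in 1.44% of all genes. The stage II ovaries also lay above those of stage I, a separation whose share over all genes was not counted. Stage I replicate 1 lay nearer to the stage II ovaries than to the other stage I ovaries. The difference from control was 4.35 (SE 0.47) in stage I and 7.52 (183-fold) in stage II. Between the stages Defb8 differed by 3.17 (8.97-fold, SE 0.54). Without stage I replicate 1, the stage I difference was 3.50 for Defb8 and 6.20 for Lcn2.

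S100a8 was dim in every group. Its log2 level was 4.03 to 4.59 in controls (median 4.19), 4.83, 4.38 and 4.28 in stage I, and 3.91, 4.14 and 4.08 in stage II. Both tumor stages thus overlapped the controls. The stage II ovaries lay below those of stage I, and the share of all genes with such a separation was not counted. The difference from control was 0.24 in stage I and -0.22 in stage II (SE 0.14). Between 9.85% and 21.9% of probe sets on an array were dimmer than S100a8, so its level lay in the dim part of the scale in all 12 ovaries. Its partner S100a9 was not analysed here. In whole ovaries, fewer cells of a type and less RNA per cell cannot be told apart.

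Defb1, another epithelial beta-defensin, differed more from controls than the other 10 beta-defensins measured beside Defb8, and its stage I call depended on the probe set. The brighter probe set, which represents the gene in the fit of 1 probe set per gene, gave log2 levels of 5.01 to 6.39 in controls, 10.32, 7.90 and 8.08 in stage I, and 10.55, 11.22 and 12.72 in stage II. The other probe set gave 3.56 to 3.92 in controls, 11.31, 8.47 and 8.87 in stage I, and 11.44, 12.02 and 13.04 in stage II. Both probe sets separated every tumor ovary from every control, as in 1.44% of all genes, and they differed mainly in the control level. In stage II Defb1 was higher than in controls by 5.76 ± 0.54 (SE) with the brighter probe set (54.1-fold, limma, adjusted p = 1.9e-05) and by 8.44 with the other (347-fold, adjusted p = 6.7e-07 in the fit of every probe set).

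In stage I the brighter Defb1 probe set was 3.03 above controls (limma, adjusted p = 0.058) and missed the threshold of 0.05, while the other was 5.82 above (56.6-fold, adjusted p = 0.00016) in a fit of every probe set, which called 0.191% of 14674 probe sets. The brighter one passed without stage II replicate 3 (adjusted p = 0.031). Between the stages Defb1 rose by 2.72 (6.61-fold, limma, adjusted p = 0.017). The call was lost when stage I replicate 2 or 3 or stage II replicate 3 was left out (largest adjusted p 0.075). A block for the replicate number also ended it (limma, adjusted p = 0.067). So did fitting stages I and II alone (0.091) and leaving out the 3 arrays of highest Ovgp1 (0.11).

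The other 10 beta-defensins measured (Defb3, Defb4, Defb5, Defb6, Defb7, Defb9, Defb10, Defb13, Defb15 and Defb35) had log2 levels between 2.82 and 5.55 in all arrays. Their differences from control ran from -0.17 to 0.11 in stage I and from -0.10 to 0.22 in stage II. Defb7 was the 1 gene of them past the threshold, at 0.22 in stage II (limma, adjusted p = 0.017), a call lost when stage II replicate 2 or 3 was left out (largest adjusted p 0.080). With Defb1, 2 of 11 other beta-defensins were called in stage II (18.2%), against 21% of all genes tested, a share near the background, and 1 was called without stage II replicate 3. All beta-defensins measured here lie on chromosome 8, where Defb8 neighbours Defb3 and Defb7. In stage II, Defb3 differed from control by 0.21 (limma, adjusted p = 0.094) and Defb5, the next gene, by 0.10 (adjusted p = 0.40). On either side of Lcn2, 1110008P14Rik was higher in stage II by 0.61 (limma, adjusted p = 0.0068), and Ptges2, a prostaglandin E synthase, differed by 0.31 (adjusted p = 0.05, at the threshold).

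**Figure D2:**
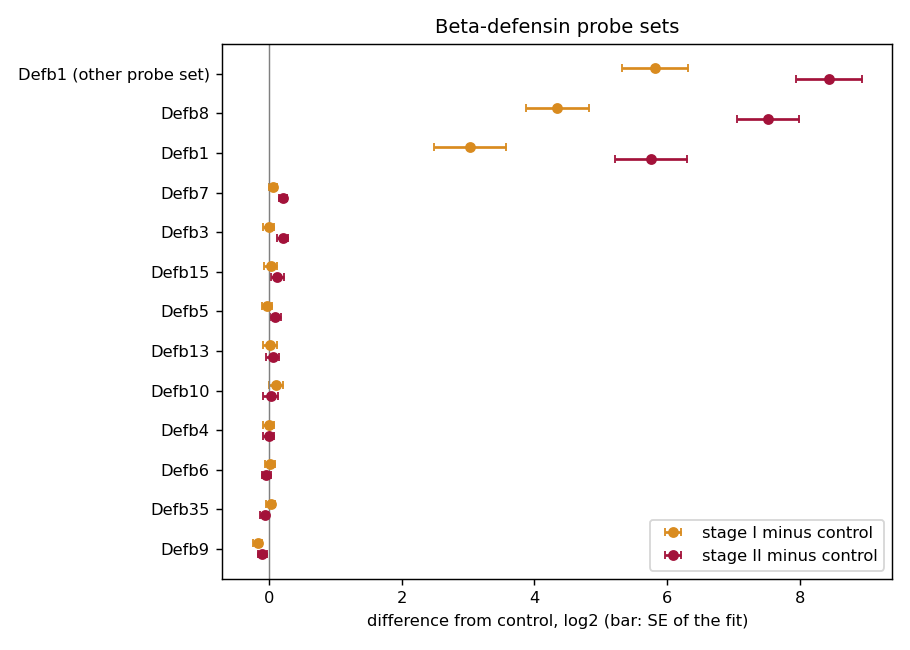
Difference from control on the log2 scale (horizontal axis) for each beta-defensin probe set, stage I and stage II separately; points are differences of group means and bars the SE of the fit. Defb8 and both Defb1 probe sets lie between 3.03 and 8.44, and the other 10 genes between -0.17 and 0.22.

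Genes with the most similar course over the 12 arrays were found by the mean absolute difference of profiles scaled to mean 0 and SD 1. Predicted genes, Rik clones and symbols without a name were left out of the ranking. Nearest to Lcn2 were Svs5 (0.13), a seminal vesicle secretory gene, Tspan8 (0.15), a tetraspanin of epithelia, Pmaip1 (0.17), which encodes Noxa, Pgr (0.19) and Amy1 (0.20), a salivary amylase. The median over the ranked genes was 1.2. Nearest to Defb8 were Fga (0.081), the fibrinogen alpha chain, Prl7a2 (0.099), a prolactin-family gene, Ly6d (0.11), Tspan8 (0.12) and Pmaip1 (0.12). Defb1 stood at rank 13 (0.17), and the median over the ranked genes was 1.1. Tspan8 and Pmaip1 stood on both lists. S100a8 had no ranked gene closer than 0.26 (Sel1l), followed by the ribosomal protein gene Rps7 (0.27).

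Of 158 other innate defence genes on 10 lists and in the beta-defensin family, 38 were called in stage II against control by limma, 31 higher and 7 lower. That is 24.1% of them against 21% of all genes. Higher calls made 19.6% of the listed genes and 9.81% of all genes, and lower calls 4.43% and 11.2%. The lists were chosen with earlier results of these data known, so shares of listed genes here and below are a description. The median difference was 0.06 over the listed genes and -0.01 over all genes, with single listed genes from -1.29 to 5.76. In stage I limma called 0 of the 158 (0.192% of all genes), while 22 (13.9%) had an unadjusted p under 0.05, against 6.38% of all genes. The stage II count fell to 21 without stage II replicate 3.

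Stage I replicate 1 stood apart from the other 2 ovaries of its stage. This array held the highest stage I level in 22 of the 31 listed genes called higher in stage II, and in 68.6% of all genes called higher in stage II. All 6 tumor ovaries lay above all 6 controls in 9 of the 158 listed genes (5.70%), against 1.44% of all genes. They were Defb1, Cd14, Cebpd, Cp, C4bp, Ptgds, Fpr2, Myd88 and Saa4, of which Myd88 and Saa4 fall outside the naming rule and were chosen after their values were seen.

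Among 11 lipocalins and Lcn2 receptors, 2 rose in stage II and 0 fell, with a median of 0.05. That is 18.2% called against 21% of all genes, and 1 was called without stage II replicate 1. Lrp2 encodes megalin, an endocytic receptor of kidney and other epithelia that takes up lipocalin 2. Its log2 level was 3.63 to 4.19 in controls (median 3.82), 5.06, 3.68 and 4.14 in stage I, and 6.26, 6.08 and 6.61 in stage II. It was higher in stage II than in controls by 2.46 ± 0.24 (SE, limma, adjusted p = 2.3e-05) and than in stage I by 2.02 (adjusted p = 0.0011), while stage I replicates 2 and 3 lay within the control range. Ptgds, the lipocalin-type prostaglandin D synthase, was higher in stage II by 0.78 (adjusted p = 0.011), a call lost without stage II replicate 1 (adjusted p = 0.053).

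Ceruloplasmin differed most among the iron handling genes. Of 13 measured, 3 rose and 1 fell in stage II (30.8% called, against 21% of all genes), with a median of 0.13. The calls numbered 2 without control replicate 3. Cp, a copper-bearing ferroxidase and acute phase protein, was at 8.26 to 9.18 in controls (median 8.83), 10.88, 9.47 and 9.34 in stage I, and 12.07, 11.88 and 11.91 in stage II. Its log2 difference from control was 3.17 ± 0.29 (SE, adjusted p = 1.2e-05) in stage II and 1.12 (adjusted p = 0.31) in stage I. Aco1, the cytosolic aconitase that doubles as an iron sensor, fell by 0.47 on the log2 scale in stage II (limma, adjusted p = 0.0035).

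Of 12 calgranulin relatives and receptors, 6 rose and 1 fell in stage II (58.3% called, against 21% of all genes), with a median of 0.22. Without stage II replicate 2 or 3 the calls numbered 4 and 3. Cd36, a scavenger receptor, was higher by 2.28 (limma, adjusted p = 4.4e-05), S100a6 by 1.54 (adjusted p = 0.0091) and S100a10, the partner of annexin A2, by 1.18 (adjusted p = 4.1e-05). S100a6 lies near S100a8 on the chromosome. S100a10 levels were 11.37 to 11.66 in controls and 12.51, 12.54 and 13.06 in stage II.

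Of 14 pattern recognition genes, 3 rose and 0 fell in stage II (21.4% called, close to the 21% of all genes). Cd14, the lipopolysaccharide co-receptor, was at 6.99 to 7.45 in controls (median 7.25), 8.75, 7.78 and 7.76 in stage I, and 9.43, 9.62 and 10.16 in stage II. Its log2 difference was 2.50 ± 0.21 (SE, limma, adjusted p = 6.2e-06) in stage II, and stage II exceeded stage I by 1.64 (adjusted p = 0.0017). Irak3, an inhibitor of that pathway, was higher by 0.63 (adjusted p = 0.0019), and Pycard, the inflammasome adaptor ASC, by 0.62 (adjusted p = 0.0023).

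Of 31 genes on a list of acute phase inducers that also held inhibitors and chemokines, 7 rose and 1 fell in stage II, with a median of 0.10. That is 25.8% called against 21% of all genes. The calls numbered 4 without control replicate 3 or stage II replicate 3, and 5 without control replicate 2 or stage II replicate 1 or 2. Cebpd encodes C/EBP delta and was higher by 1.62 ± 0.22 (SE, limma, adjusted p = 0.00033), with 8.09 to 9.06 in controls (median 8.43) and 10.43, 10.20 and 9.79 in stage II. Il6st, the shared signal chain gp130 of interleukin 6 receptors, was higher by 0.85 (adjusted p = 6.9e-05), the chemokine gene Cxcl1 by 1.00 (adjusted p = 0.0037) and the interleukin 17 receptor gene Il17rc by 0.51 (adjusted p = 0.0021). For Il6st stage II also exceeded stage I, by 0.62 (adjusted p = 0.0047). Nfkb2, Nfkbiz and Il6ra were also called higher in stage II, and Tnfrsf1b was called lower. Cebpb, Stat3 and Il17a, chosen after their values were seen, differed from control by 0.08, -0.17 and 0.14 in stage II (limma, adjusted p = 0.62, 0.24 and 0.27).

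**Figure D3:**
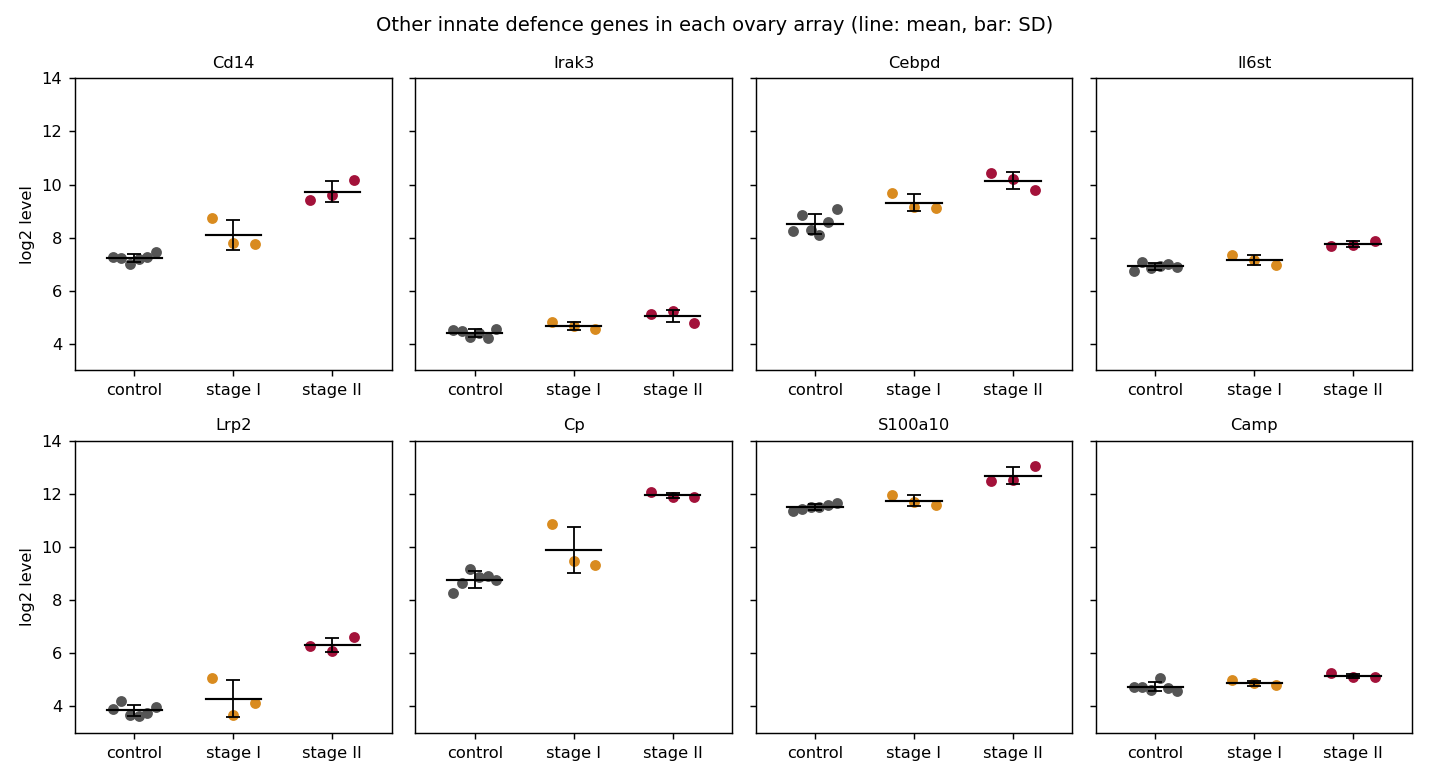
The log2 level (vertical axis) of 8 innate defence genes in 6 control, 3 stage I and 3 stage II ovaries. Points are arrays, horizontal lines group means and bars SDs. In every gene shown but Irak3 the stage II ovaries lie above all others, a separation whose share over all genes was not counted.

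Complement genes went both ways. Of 16 activation genes 3 rose and 2 fell in stage II (median -0.02), of 11 regulators 1 rose and 2 fell (0.02), and of 6 receptors 1 rose (0.22). Called shares were 31.2%, 27.3% and 16.7%, against 21% of all genes. Activation genes called numbered 1 without stage II replicate 3, 2 without control replicate 2 or 3 or stage II replicate 1, and 3 without control replicate 1 or 4 or stage II replicate 2, and regulators 1 without stage II replicate 3. Mbl2, a mannose-binding lectin, fell by 0.70 on the log2 scale (limma, adjusted p = 0.004), and C4bp, the C4b-binding protein, was higher by 0.98 (adjusted p = 0.0042). Itgax, the alpha chain of complement receptor CR4, was higher by 0.34 (adjusted p = 0.0029). Clu, which encodes clusterin, fell by 0.77 (adjusted p = 0.0086), a call lost when stage II replicate 3 was left out (adjusted p = 0.055). The calls of C1qa (0.52, adjusted p = 0.036) and C1qb (0.50, adjusted p = 0.037), both of which encode C1q chains, were lost when any of control replicates 1 to 4 or stage II replicates 1 and 3 was left out, and that of C1qb also without replicate 2 of stage II, with a largest adjusted p of 0.17.

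Of 19 epithelial defence proteins, 2 rose in stage II and 0 fell, with a median of 0.02. That is 10.5% called, below the 21% of all genes, and the calls numbered 1, 4 and 1 without stage II replicates 1, 2 and 3. Camp, the cathelicidin gene, was higher by 0.42 (limma, adjusted p = 0.011), a call lost when stage II replicate 1 was left out (adjusted p = 0.053). Saa1, a serum amyloid A gene, was at 5.83 to 7.49 in controls and 5.93 to 6.38 in stage II, and its difference of -0.41 was not called (adjusted p = 0.55).

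**Figure D4:**
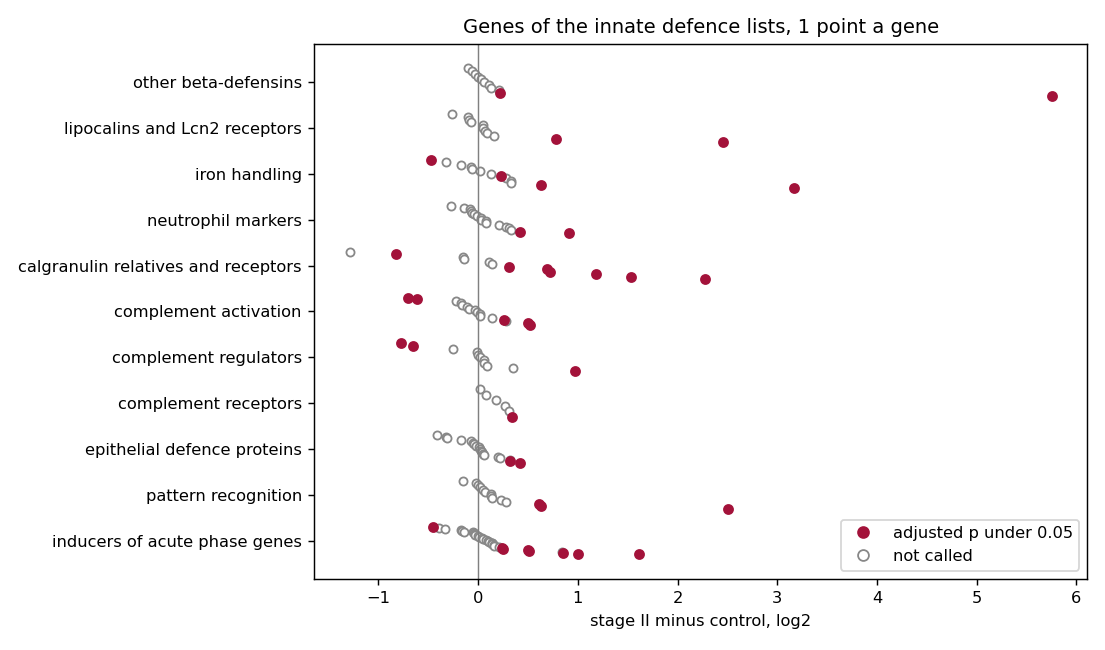
Difference of stage II from control on the log2 scale (horizontal axis) for each measured gene of the other beta-defensins and of 10 innate defence lists. Filled points passed an adjusted p of 0.05 in limma; most genes lie near 0, and Defb1 at 5.76, Cp at 3.17, Cd14 at 2.50 and Lrp2 at 2.46 lie farthest to the right.

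Markers of cell types were followed beside these genes as mean differences from the control mean. The score of the 17 neutrophil markers ran from -0.10 to 0.12 over controls, from -0.01 to 0.22 over stage I and from 0.05 to 0.22 over stage II, where 2 of 17 rose (11.8%, below the 21% of all genes): Camp, lost without stage II replicate 1 as above, and Cybb, the phagocyte oxidase subunit (0.91, limma, adjusted p = 0.006). Fpr2 differed by 0.55 in stage I and 0.33 in stage II, and Cd177 by -0.45 and -0.27, none of them called. Elane, which encodes neutrophil elastase, differed by 0.03 in stage II (limma, adjusted p = 0.88) and Mmp9, a gelatinase of neutrophils, by -0.07 (adjusted p = 0.73). Elane and Mmp9 were chosen after their values were seen. In stage II, 10 of the 17 markers lay above 0 and 7 below. The score of the 8 macrophage markers ran from -0.07 to 0.13 over controls, from -0.01 to 0.55 over stage I, where replicate 1 lay above every stage II ovary, and from 0.25 to 0.41 over stage II. In stage II 3 were called higher (37.5%, against 9.81% of all genes called higher). Of these, Fcgr1, an immunoglobulin receptor, was lost in 6 of the 12 fits with 1 array left out (limma, largest adjusted p 0.16). Those fits left out control replicate 1, 2 or 4 or any 1 stage II array. The part of these cells in the Lcn2, Cd14 and Cybb levels was not tested.

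The 14 epithelial markers lay between -0.41 and 0.51 in controls and between 0.25 and 0.67 in stage II, with overlap. In stage II 4 rose (28.6%, against 9.81% of all genes called higher). The median difference over the list was 0.01, with 7 markers above 0 and 7 below. Krt8, a simple epithelial keratin, was higher by 3.59 (limma, adjusted p = 1e-05), while Epcam, an epithelial adhesion molecule, was at 8.28 to 9.74 in controls and 8.06 to 8.91 in stage II. Of 5 liver markers 2 rose (40%, against 9.81% of all genes called higher). They were Apoh, by 4.27 (limma, adjusted p = 8.3e-06), and Apoa1, by 3.21 (adjusted p = 4.4e-05), both apolipoprotein genes. Albumin (Alb) stayed between 4.52 and 4.98 in all 12 arrays. Markers of ovarian cells fell in stage II, with 5 of 5 granulosa, 3 of 4 theca and 8 of 8 oocyte markers called lower. Of all genes, 11.2% were called lower in stage II. In stage I 0 of 17 were called, against 0.192% of all genes. Without stage II replicate 3 the calls numbered 3 granulosa, 2 theca and 7 oocyte markers. Theca calls also numbered 2 without stage II replicate 1. The granulosa marker Inhbb was lost in 5 of the 12 fits with 1 array left out. The part of these marker levels in the differences of Lcn2 and Defb8 was not tested.

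**Figure D5:**
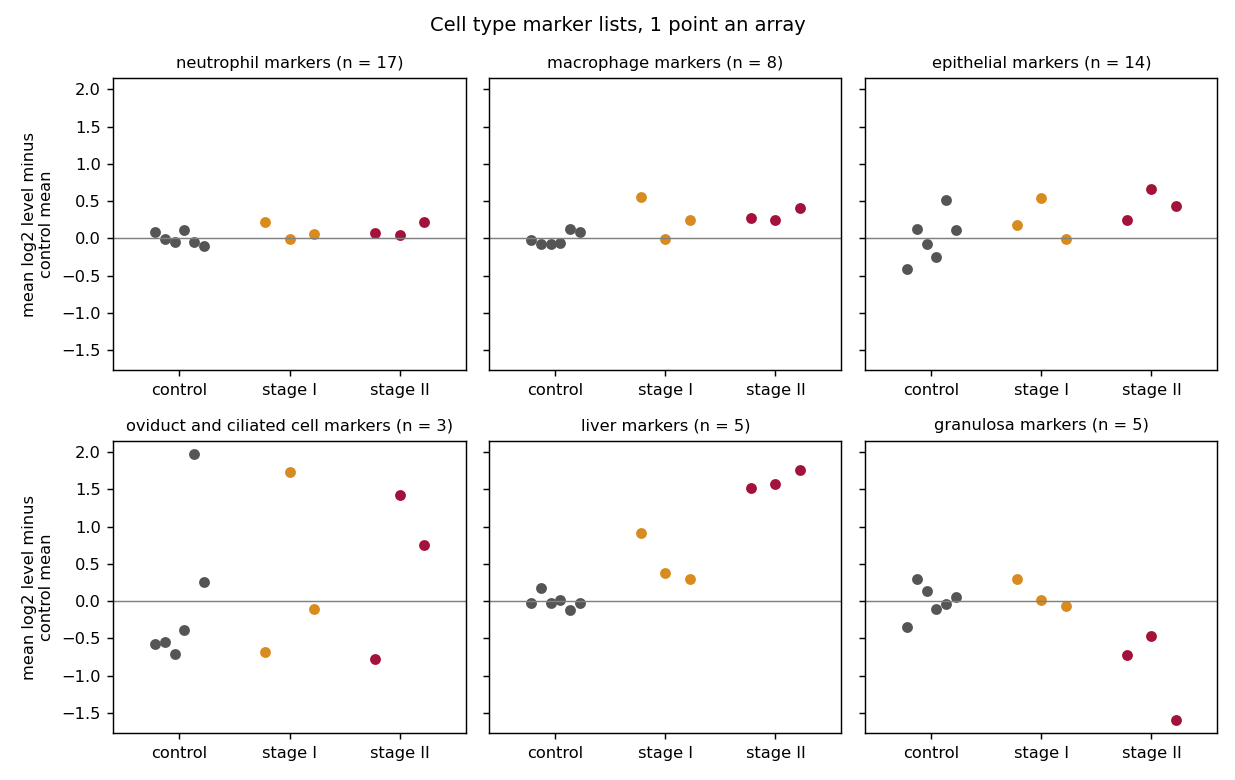
Mean log2 level of 6 cell type marker lists relative to the control mean (vertical axis), 1 point an array, in control, stage I and stage II ovaries. Neutrophil markers stay within -0.10 and 0.22 in all groups, and granulosa markers reach -1.59 in stage II.

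Between the stages, limma called 19 of the 158 listed genes (12%), 14 higher and 5 lower in stage II than in stage I, against 12.5% of all genes, a share near the background. The count was 11, 7 and 8 without stage I replicate 2, stage I replicate 3 and stage II replicate 3. Cd14, Cp, Lrp2, S100a10 and Il6st were among the genes that were higher in stage II. With the mean of both stages set against control, 19 of 158 were called (12%) beside 6.76% of all genes, and 12 without control replicate 3.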

How the data were processed

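The data are 12 expression arrays of mouse ovary, 1 array per sample. The authors deposited 1 log2 value per probe set and array, whose normalization is not given in the sources used here. Array medians lay between 7.09 and 7.15. RNA was extracted with Trizol and columns and labelled with biotin, per the labels' protocols. Of 16376 probe sets in the table used, 14674 had 1 gene symbol, 427 several and 1275 none. A gene was represented by its probe set of highest mean (10949 genes).

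limma 3.58.1 in R 4.3.3 fitted 1 mean per group to all 12 arrays (lmFit, eBayes), and p-values were adjusted by Benjamini-Hochberg over all genes, with a threshold of 0.05. The fit was tested on simulated data. The members and lists were chosen with earlier results of these data known. Lists held 304 symbols, of which 193 were measured. Genes were named by a rule: per list up to 4 called genes with the largest difference, or 2 where none was called. Not every gene it picked is described above. Among the innate defence lists in stage II, Emb, Cd55, Hpx, Steap4, Dmbt1 and Hc are not. Each of them lost its call against control in 2 to 8 of the 12 fits with 1 array left out. Alternatives were quantile normalization, centred medians, a filter on the dimmest 25 percent, other probe set rules and another variance prior. Further ones were fits of the compared groups alone, the replicate number as a block, and arrays left out. For both stages against control, the fit of the compared groups pooled the stages as 1 group. The number of arrays limits the precision.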

Additional observations from a re-analysis of the deposited data

Results flagged for a closer look

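Defb1 was represented by its brighter probe set, and its other probe set showed a signal that the fit of 1 probe set per gene did not use, 5.82 above controls in stage I on the log2 scale, against 3.03 for the brighter one.

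Single control arrays stood apart from the other 5 in 3 of 66 genes and groups examined, and chance gives about 1 in 20. Camp was at 5.07 in control replicate 4, with the nearest other control at 4.74. Foxj1, a ciliated cell regulator, was at 5.78 in control replicate 5 (nearest 5.28), and Wfdc18, a secreted defence protein, at 8.65 there (nearest 5.73). Control replicate 5 also held the highest Ovgp1 level of all arrays, 12.70.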

How the results depend on the processing

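No alternative turned the direction of a call, and the differences of Lcn2, Defb8 and S100a8 moved, in each one that gave a value, by less than the largest SD among the groups compared, which for Defb8 in stage I is 1.49. The filter on the dimmest 25 percent of genes removed S100a8. With single arrays left out, the stage I differences ran from 6.20 to 6.96 for Lcn2, 3.50 to 4.86 for Defb8 and 0.07 to 0.34 for S100a8, and the stage II differences from 7.85 to 8.26, 7.26 to 7.86 and -0.26 to -0.15. Listed genes called with arrays left out ran from 0 to 1 in stage I, 21 to 39 in stage II, 12 to 21 for both stages and 7 to 23 between the stages. The stage I count of 0 became 1 with quantile normalization, with the average over a gene's probe sets and with every probe set. The count of 19 for both stages became 8 with the replicate block. It became 1 when stages I and II were pooled as 1 group, which leaves the difference between the stages in the spread. The count of 19 between the stages became 9 with the replicate block, 6 with the compared groups alone and 7 without the 3 arrays of highest Ovgp1, an alternative chosen after seeing the data. Leaving out control replicates 1 and 4 together was also chosen after seeing the data. It ended the stage II calls against control of C1qa, C1qb, Fcgr1, Emb and Hpx. Same-numbered arrays correlated between -0.13 and 0.20 in their deviations from group means, so they share only a number; with the replicate block Lcn2 differed by 7.03 in stage I and 8.40 in stage II. The causes of these shifts were not tested. Detection limits were not used here, so folds of genes near the lowest value, 2.69, may differ from ratios of transcripts.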
